A study of Mus musculus with 3 samples.

Results

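Pcdh15, Pcdh7, Cdh18, Ctnna2, Kirrel3, Lrrc4c, Grid1, Syt1, Erc2 and Nav3 are 10 genes best known from neurons and sensory cells, and each had been picked as a marker of a subset of nuclei in the newborn mouse aortic root. In the clustering used here, 8 of them were among the 10 leading genes of a cluster, and Pcdh7 and Kirrel3 were not. They are 10 of the 36167 features measured and were chosen by name, from the levels across subsets of nuclei in these same libraries. The levels across classes and clusters given below are therefore descriptions without a test. The tissue was the aortic valve structure of mouse pups at postnatal day 1, dissected and flash frozen, with 22 to 24 aortic roots in each of 3 pools. All pools belong to 1 group, of the strain labelled B6.Cg-Scx<tm1.1(EGFP)Skom, with the stock number RBRC11098, a name that places an EGFP sequence at the Scx locus. The labels used here do not state zygosity or the sex of the pups, and all pools share the strain. The measurement was the RNA part of a 10x Genomics Multiome assay, in which unique molecular identifiers (UMIs) count RNA molecules of single nuclei. The pools are separate samples of one group, and the spread between them may be partly technical. The design holds no second treatment or genotype.

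Cadherins and protocadherins are calcium-dependent adhesion proteins that bind partners on neighbouring cells, and alpha-catenins tie the cadherin complex to actin. Immunoglobulin-type and leucine-rich repeat proteins at synapses recognise specific partners and help to decide which cells form contacts. Inside the nerve ending, calcium sensors of the synaptotagmin family start vesicle fusion, and scaffold proteins of the active zone hold vesicles and calcium channels in place. Valve interstitial cells build the matrix of the leaflets, smooth muscle forms the wall of the aortic root, and endothelial cells line both.

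RefSeq promoter windows of the mouse build GRCm38.p6 were found for 7 of the 10 genes, and not for Kirrel3, Nav3 and Grid1. The files themselves use another build, GRCm39 in the submitters' processing notes, so these coordinates belong to the RefSeq table only. The 4 windows below are shown because Lrrc4c and Erc2 were highest in the same cardiomyocyte-like cluster, and because Pcdh15 and Ctnna2 were highest in different clusters of valve interstitial-like nuclei. Each window is the 250 bases before the annotated start, 5′ to 3′ on the strand of the gene, with E-boxes (CANNTG, a pattern that is its own reverse complement) in capitals.
Lrrc4c, chr2:96317919-96318168, plus strand: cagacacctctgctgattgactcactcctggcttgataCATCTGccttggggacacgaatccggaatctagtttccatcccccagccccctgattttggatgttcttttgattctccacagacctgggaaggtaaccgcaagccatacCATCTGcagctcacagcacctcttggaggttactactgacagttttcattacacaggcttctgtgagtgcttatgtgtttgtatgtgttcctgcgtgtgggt
Erc2, chr14:27622157-27622406, plus strand: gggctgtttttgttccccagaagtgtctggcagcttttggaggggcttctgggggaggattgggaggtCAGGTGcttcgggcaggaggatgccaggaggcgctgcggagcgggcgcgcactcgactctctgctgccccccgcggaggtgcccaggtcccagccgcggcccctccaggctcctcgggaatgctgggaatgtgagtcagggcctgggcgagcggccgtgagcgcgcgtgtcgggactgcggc
Pcdh15, chr10:73821617-73821866, plus strand: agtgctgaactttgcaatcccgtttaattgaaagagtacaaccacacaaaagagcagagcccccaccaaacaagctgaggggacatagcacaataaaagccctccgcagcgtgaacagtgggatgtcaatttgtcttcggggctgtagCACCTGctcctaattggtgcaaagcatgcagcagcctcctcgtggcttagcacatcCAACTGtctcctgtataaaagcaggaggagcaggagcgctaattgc
Ctnna2, chr6:77979668-77979917, minus strand: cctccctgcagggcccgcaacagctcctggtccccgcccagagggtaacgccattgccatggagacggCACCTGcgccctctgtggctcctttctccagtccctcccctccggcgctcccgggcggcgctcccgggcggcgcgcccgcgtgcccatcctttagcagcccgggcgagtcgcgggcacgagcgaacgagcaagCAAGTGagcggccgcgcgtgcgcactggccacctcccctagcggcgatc
An E-box was present in 66.2% of the 32851 windows of the table and in 5 of the 8 windows of these genes, the 4 shown and 1 of the 2 of Syt1. The windows of Pcdh7 and Cdh18 held none. The windows of the 2 genes of cardiomyocyte-like nuclei differed in base composition. Lrrc4c had 4 CG dinucleotides and 49.6% G and C, and Erc2 had 20 and 69.6%, beside a median of 6 and 52.4% over all windows. Ctnna2 had 30 CG dinucleotides and 73.2% G and C, and Pcdh15 had 6 and 50.4%. A CArG box, the motif of serum response factor, was in 1.47% of all windows and was not in the windows of Pcdh7, Cdh18 and Syt1.

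The deposited tables held 96513814 UMIs in 21140 nuclei, and 13182 nuclei were analysed, from 3098 to 6473 a pool, with a median of 3340 to 4756 UMIs. Nuclei with over 5% mitochondrial UMIs made up 14.1 to 41.8% of the deposited nuclei of a pool. Pools shared 44 to 99 barcodes before and 16 to 33 after these steps. Clustering without the 10 genes gave 28 clusters, of which 26 took the name of 12 marker classes, with "-like" added since no label gives a nucleus a cell type. Valve interstitial-like nuclei were 10.0 to 12.1% of a pool and showed 8 of 8 fixed valve markers in both of their clusters. Cluster 2, led by Clca3a2 and Pi15, reached 3 smooth muscle markers and 3 pericyte markers, and it is counted as smooth muscle-like below. Cluster 9, led by cell cycle genes, and cluster 21, with a median of 14515 UMIs and 142 of its 182 nuclei from pool 3, stayed unnamed.

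No cluster of neurons or Schwann cells was found. Of 9 neuron markers, Th and Chrna3 were at 0 in clusters 1, 2, 3, 4, 10, 11 and 18, which the results below turn on. The summed level of the 9 markers was 14.3 CPM (CPM is the standard depth-scaled count, here of the summed UMIs of a pool's nuclei in a cluster or class) in cluster 3, 15.8 in cluster 11, 16.0 in cluster 1, 23.1 in cluster 2 and 77.5 in cluster 10, where Prph and Dbh were at 0 as well. In cluster 4 it was 64.8 CPM and in cluster 18 it was 116 CPM. The 8 Schwann cell markers summed to between 10.3 and 35.8 CPM in these 7 clusters, beside 1154 CPM in the melanocyte-like cluster 24, which shares some of them.

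Among the 10 classes with at least 20 nuclei in each pool, and in every one of the 3 pools, 4 of the 10 genes were highest in valve interstitial-like nuclei (Pcdh15, Ctnna2, Kirrel3 and Nav3), 3 in smooth muscle-like nuclei (Pcdh7, Cdh18 and Syt1), 2 in cardiomyocyte-like nuclei (Lrrc4c and Erc2) and 1 in endothelial-like nuclei (Grid1). For Cdh18 and Syt1 the class name rests on the clustering, since in 5 of 6 other settings of filtering or clustering their highest class was pericyte-like. None was highest in fibroblast-like nuclei. For all 10 genes the 3 pools of the highest class lay above the 3 pools of the next class. Of the 11030 genes that reached 20 CPM in some class, 39.2% did the same. The genes were chosen for such levels, so nothing is read from the difference.

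**Figure D1:**
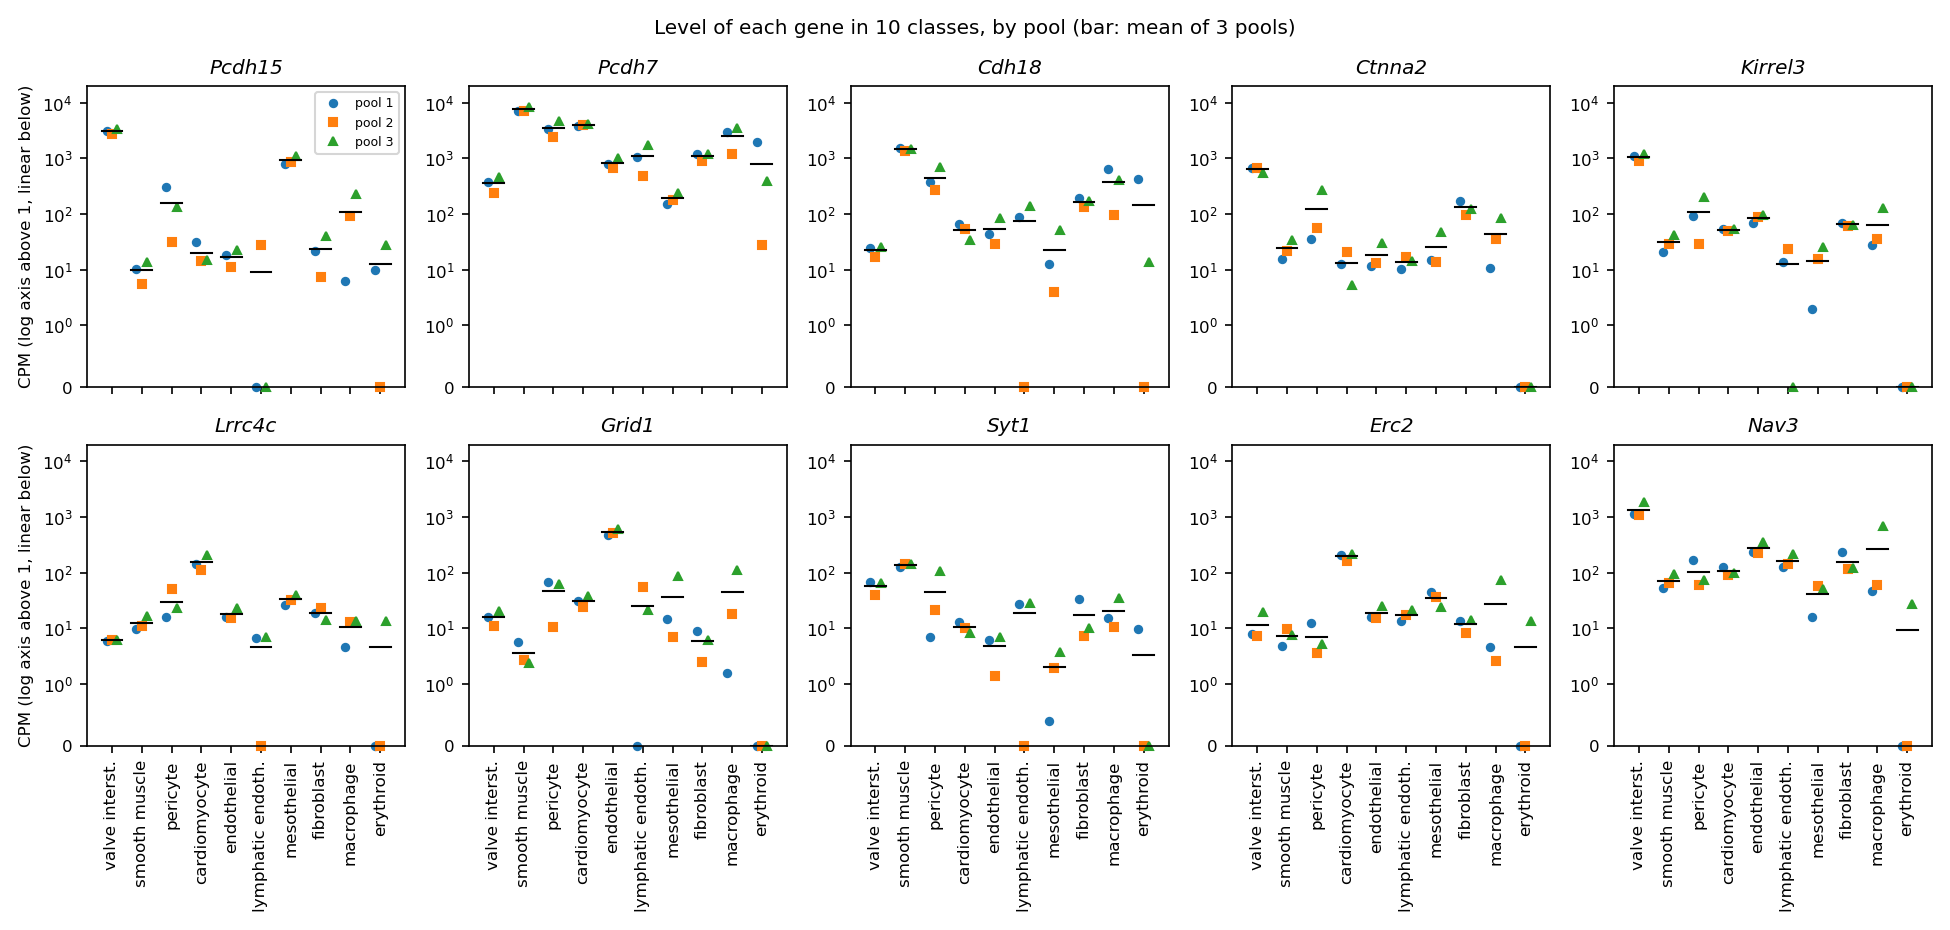
Level of each gene (vertical axis, CPM, logarithmic above 1 and linear below) in the 10 classes with at least 20 nuclei in each pool, with 1 symbol per pool and a bar for the mean of 3 pools. Pcdh15 stands at 3055 CPM in valve interstitial-like nuclei, Cdh18 at 1481 CPM in smooth muscle-like nuclei and Grid1 at 533 CPM in endothelial-like nuclei, and Pcdh7 is above 100 CPM in the mean of every class.

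Pcdh15, a protocadherin of the tip links that open the transduction channels of inner ear hair cells, had 3102, 2691 and 3373 CPM in valve interstitial-like nuclei of pools 1, 2 and 3 (3055 ± 343, mean ± SD, n = 3). These 1459 nuclei were 11.1% of all nuclei and held 72.8% of all Pcdh15 UMIs. Mesothelial-like nuclei came next, at 807, 845 and 1102 CPM (918 ± 160), and no pool of theirs reached the valve interstitial-like range. After each nucleus was thinned to 1000 UMIs, 40.7% ± 4.24 of valve interstitial-like and 41.1% ± 13.6 of mesothelial-like nuclei had a Pcdh15 UMI, and the 2 shares overlapped while the levels did not. In smooth muscle-like nuclei, a class with a low level, the share was 1.04% ± 0.134, at median depths of 3599 (valve interstitial-like), 9893 (mesothelial-like) and 3301 UMIs (smooth muscle-like). Without thinning these shares were 48.7%, 73.0% and 2.49%. The thinned share was 1.94% ± 0.707 in fibroblast-like and 4.18% ± 1.80 in pericyte-like nuclei, and 0 in erythroid-like and lymphatic endothelial-like nuclei. The background of free RNA was not estimated. The other 8 classes had means of 9.05 to 155 CPM, and the pericyte-like value of 155 ± 136 rested on pools between 31.9 and 301 CPM. Within the valve class, cluster 11, led by Rmst, Rnf43 and Adamts19, had 4000 ± 503 CPM and cluster 3, led by Ctnna2 and Abi3bp, had 2451 ± 193 CPM.

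Pcdh7, a protocadherin found in many tissues, was the broadest of the 10. Smooth muscle-like nuclei had 7247, 7223 and 8321 CPM (7597 ± 627), and 97.1% ± 1.02 of them had a UMI after thinning. Cardiomyocyte-like nuclei followed at 3848, 3907 and 4204 CPM (3986 ± 190), below every smooth muscle-like pool. They overlapped with pericyte-like nuclei, at 3454 ± 1125 CPM. The lowest mean was in mesothelial-like nuclei, at 191 ± 47.4 CPM, where 9.49% ± 2.26 of nuclei had a UMI. Valve interstitial-like nuclei were low as well, at 358 ± 107 CPM and 18.3% ± 1.32 of nuclei. Pcdh7 also varied inside classes. Cluster 0, the largest cardiomyocyte-like cluster, had 4663 ± 31.7 CPM and cluster 25, led by Mb and Myl7, had 226 ± 150 CPM. Cluster 25 held 66 nuclei with a median of 1646 UMIs, and its level rested on 37 Pcdh7 UMIs, 1 of them in pool 3. Cardiomyocyte-like nuclei with a Pcdh7 UMI after thinning had a median of 0.463% mitochondrial UMIs, and those without had 1.95%. The part of depth and RNA quality was not tested. Among fibroblast-like nuclei, cluster 14, led by Tmeff2, Fgf10 and Clec3b, had 2638 ± 393 CPM, and cluster 6, led by Abca8a, had 544 ± 126 CPM.

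Cdh18, a classical type II cadherin of brain circuits, had 1563, 1376 and 1503 CPM in smooth muscle-like nuclei (1481 ± 95.6), with a UMI in 50.9% ± 1.06 of the thinned nuclei. The share in endothelial-like nuclei was 1.87% ± 0.849, at median depths of 3301 and 4452 UMIs. Pericyte-like nuclei came second with 380, 266 and 709 CPM (452 ± 230), and they overlapped with macrophage-like nuclei at 381 ± 269 CPM. The 3 smooth muscle-like clusters differed. Cluster 2 had 2352, 2009 and 2178 CPM (2180 ± 171), cluster 1, led by Ptprz1, Mylk4 and Itga8, had 1185 ± 59.4 CPM, and cluster 7, led by Xkr4 and Itgbl1, had 968 ± 182 CPM. Cdh18 repeated the fibroblast pattern of Pcdh7, with 524 ± 112 CPM in cluster 14 and 38.8 ± 6.90 CPM in cluster 6. In the 5 settings where its highest class was pericyte-like, the nuclei of cluster 2 took that name.

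Ctnna2, the alpha-catenin of neurons, was highest in valve interstitial-like nuclei, at 685, 657 and 555 CPM (632 ± 68.3). Fibroblast-like nuclei came next, at 174, 95.6 and 123 CPM (131 ± 39.8), and overlapped with pericyte-like nuclei at 121 ± 130 CPM. A UMI was seen in 25.1% ± 2.91 of valve interstitial-like nuclei after thinning, against 0.930% ± 0.473 of smooth muscle-like nuclei. Cluster 3 had 952, 851 and 677 CPM (827 ± 139) and cluster 11 had 305, 301 and 371 CPM (326 ± 39.0), so the order of the 2 valve clusters was opposite to that of Pcdh15.

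Kirrel3, a nephrin-like immunoglobulin protein that binds itself on neighbouring cells, had 1106, 899 and 1186 CPM in valve interstitial-like nuclei (1063 ± 148). In the other named classes no pool was above 201 CPM. Cluster 11 was again above cluster 3, at 1798, 1220 and 1768 CPM (1595 ± 325) against 618, 725 and 800 CPM (714 ± 91.3). Outside the valve, cluster 18 of endothelial-like nuclei, led by Pcdh17, Aplnr and Fabp4, had 380 ± 156 CPM. Cluster 16 of cardiomyocyte-like nuclei, led by Ryr3, Cpne5 and Tbx5, had 335 ± 78.9 CPM, in pools of 267, 315 and 422 CPM. The thinned share was 38.1% ± 1.299 of valve interstitial-like and 2.14% ± 0.586 of smooth muscle-like nuclei.

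Lrrc4c (netrin-G ligand 1), a leucine-rich repeat protein of the postsynaptic side, was found mainly in a small set of cardiomyocyte-like nuclei. The class had 144, 112 and 208 CPM (155 ± 49.0), and cluster 10 within it had 674, 534 and 755 CPM (654 ± 112). Cluster 16 followed at 228 ± 58.9 CPM, and the nuclei of cluster 10 were 3.69% of all nuclei with 51.8% of all Lrrc4c UMIs. After thinning, 25.5% ± 1.55 of the cluster 10 nuclei had a UMI, beside 0.691% ± 0.338 of valve interstitial-like nuclei, at median depths of 5003 and 3599 UMIs. The share was 1.48% ± 0.916 in smooth muscle-like and 1.29% ± 0.169 in endothelial-like nuclei. Cluster 10 was led by Erc2, Lrrc4c, Kcnh7 and Cacna1d and reached 5 cardiomyocyte markers and 1 smooth muscle marker.

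Grid1, an orphan member of the ionotropic glutamate receptor family that acts in synapse adhesion, had 471, 521 and 606 CPM in endothelial-like nuclei (533 ± 68.0). Its UMIs were concentrated in cluster 4, led by Grid1, Col23a1, Enox1 and Emcn, at 1535, 1532 and 2086 CPM (1718 ± 319), with 64.2% of all Grid1 UMIs in 6.06% of nuclei. A UMI was present in 64.1% ± 2.64 of its thinned nuclei, beside 0.303% ± 0.164 of smooth muscle-like nuclei, at median depths of 4099 and 3301 UMIs. The neighbouring endothelial-like cluster 5, led by Rtl4, Cytl1 and Gkn3, had 300 ± 20.8 CPM, and cluster 18 had 12.1, 0 and 86.2 CPM. Outside the endothelium, cluster 10 of cardiomyocyte-like nuclei had 105, 103 and 117 CPM (108 ± 7.46).

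Syt1, the calcium sensor of fast vesicle release, was highest in smooth muscle-like nuclei, and in pericyte-like nuclei in 5 of the 6 other settings. Smooth muscle-like nuclei had 127, 144 and 141 CPM (137 ± 9.12) and valve interstitial-like nuclei 66.2, 39.2 and 63.8 CPM (56.4 ± 14.9). Cluster 2 held 45.6% of all Syt1 UMIs, at 348, 363 and 281 CPM (331 ± 43.5), while cluster 1 of the same class had 13.2 ± 8.30 CPM. The thinned share was 13.01% ± 2.59 of cluster 2 and 0.418% ± 0.246 of endothelial-like nuclei, at median depths of 3168 and 4452 UMIs. The valve interstitial-like value rested on few nuclei, since 10 of the 1459 nuclei held 51.2% of that class's 330 Syt1 UMIs.

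Erc2 (CAST), an active zone scaffold, followed Lrrc4c. Cardiomyocyte-like nuclei had 209, 164 and 214 CPM (196 ± 27.1), and cluster 10 had 897, 830 and 730 CPM (819 ± 84.1), above cluster 16 at 135 ± 16.0 CPM and cluster 0 at 71.1 ± 4.25 CPM. The thinned share was 35.3% ± 3.82 in cluster 10 and 0.631% ± 0.426 in smooth muscle-like nuclei, at median depths of 5003 and 3301 UMIs.

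Nav3, a neuron navigator that binds microtubules, had 1143, 1078 and 1834 CPM in valve interstitial-like nuclei (1352 ± 419), with pool 3 highest. Endothelial-like nuclei had 231, 223 and 357 CPM (270 ± 74.8) and overlapped with macrophage-like nuclei at 263 ± 365 CPM. Among clusters the highest pair was close. Cluster 3 had 1437, 1442 and 2312 CPM (1730 ± 504), and the endothelial-like cluster 18 had 1379, 1226 and 1523 CPM (1376 ± 148), so their ranges overlapped over pools. Within each pool cluster 3 was the higher, by 1.04, 1.18 and 1.52 times. The share of nuclei differed more than the level, with 22.6% ± 4.17 of cluster 3 and 60.7% ± 4.44 of cluster 18 carrying a Nav3 UMI after thinning. In smooth muscle-like nuclei that share was 4.70% ± 0.435. Within the endothelial-like class Nav3 ran opposite to Grid1. Cluster 4 had 17.4 ± 3.64 CPM of Nav3, cluster 5 had 50.3 ± 2.97, clusters 12 and 17 had 322 ± 77.9 and 322 ± 69.2, and cluster 18 was highest. In cluster 20, led by Dlgap2 and Cntnap5a, pool 3 stood apart at 617 CPM, beside 13.01 and 26.3 CPM.

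**Figure D2:**
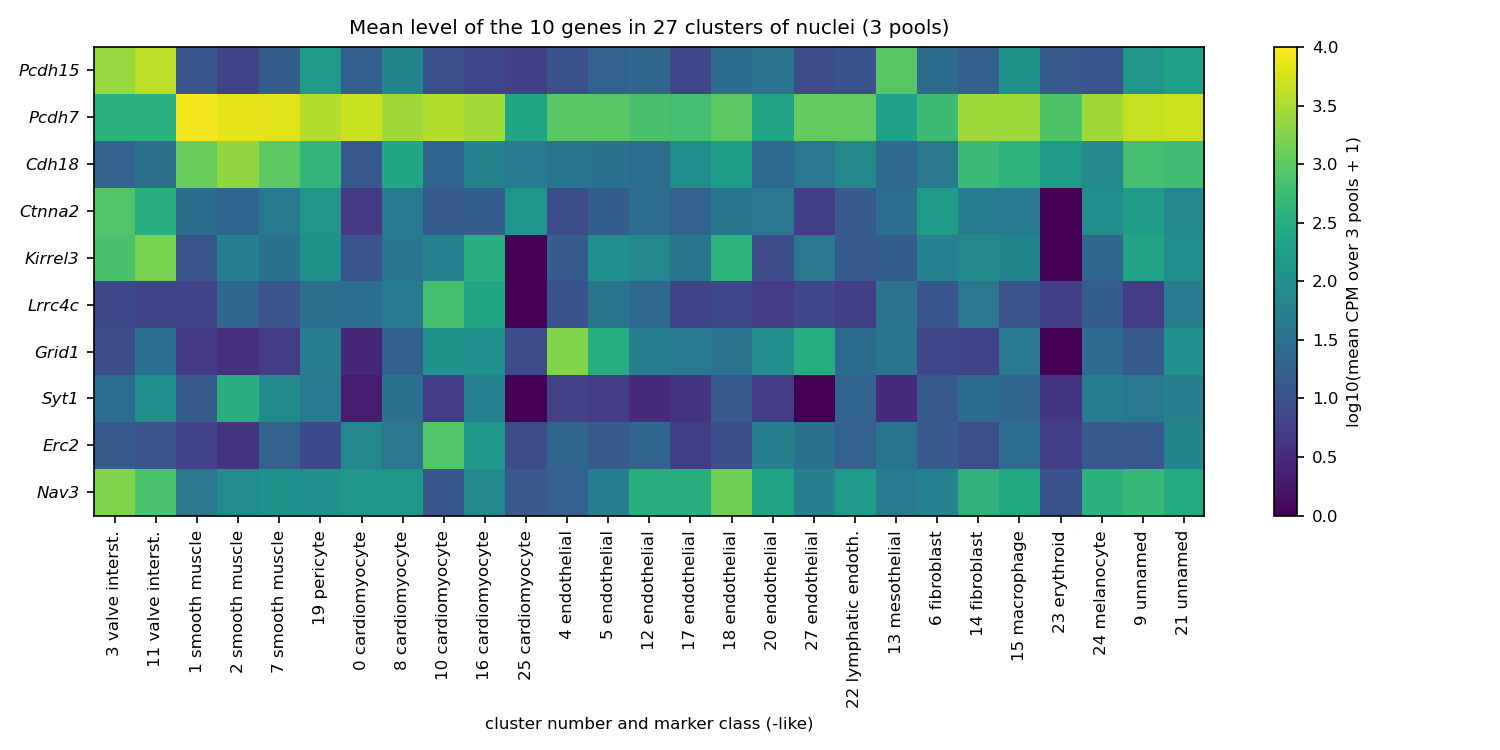
Mean level over 3 pools of each gene (rows) in the 27 clusters with at least 10 nuclei in each pool (columns, ordered by class), coloured as log10(CPM + 1). Lrrc4c and Erc2 are brightest in cluster 10, Grid1 in cluster 4, Syt1 in cluster 2, and Nav3 in the valve interstitial-like cluster 3 and the endothelial-like cluster 18.

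At a finer resolution of the clustering the valve interstitial-like nuclei fell into 3 clusters, and the 4 valve genes separated further. The cluster led by Abi3bp, Ctnna2 and Col11a1 (339 nuclei) had Ctnna2 at 1673, 1673 and 1282 CPM (1543 ± 226), Pcdh15 at 307, 135 and 0 CPM (147 ± 154) and Nav3 at 58.7 ± 32.0 CPM. The cluster led by Pcdh15, Nav3, Itih5 and Rerg (610 nuclei) had Pcdh15 at 4023, 3590 and 3404 CPM (3672 ± 318), Nav3 at 2406, 2316 and 2998 CPM (2573 ± 371) and Ctnna2 at 430 ± 104 CPM. The cluster led by Rmst and Adamts19 (495 nuclei) had Pcdh15 at 3915 ± 499 CPM, Kirrel3 at 1767, 1213 and 1741 CPM (1574 ± 313), Nav3 at 731 ± 343 CPM and Ctnna2 at 345 ± 70.6 CPM. Cluster 3 of the coarser division had sent 592 of its 976 nuclei to the cluster with Nav3 and 338 to the cluster with Ctnna2. EGFP was also highest in the cluster with most Ctnna2, at 59.9 ± 20.9 CPM in the Abi3bp cluster, 30.1 ± 13.2 CPM in the Itih5 cluster and 19.4 ± 6.18 CPM in the Rmst cluster, and its 3 pools in the Abi3bp cluster lay above those of the other clusters.

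**Figure D3:**
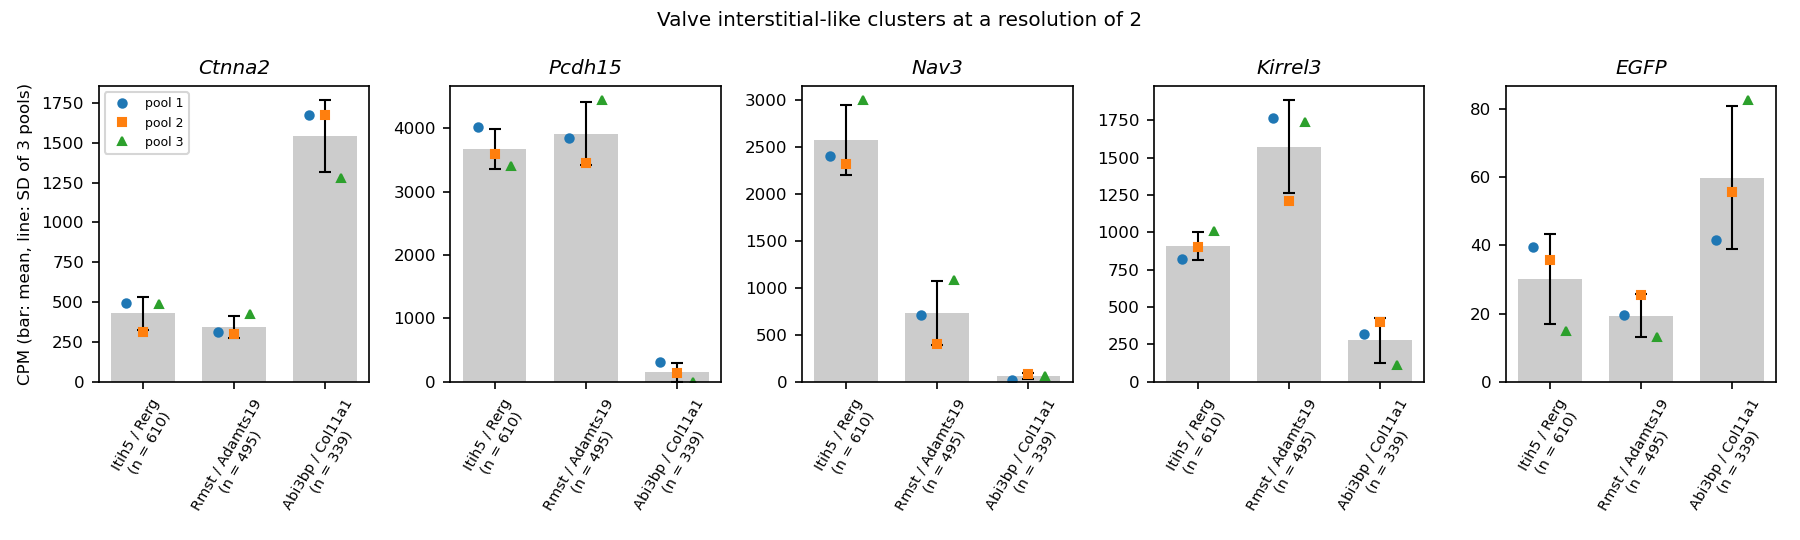
Level in CPM (vertical axis) of Ctnna2, Pcdh15, Nav3, Kirrel3 and EGFP in the 3 valve interstitial-like clusters at a resolution of 2, with bars for the mean, lines for the SD and symbols for the 3 pools. Ctnna2 is highest where Pcdh15 and Nav3 are lowest, in the Abi3bp and Col11a1 cluster.

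The division was also counted nucleus by nucleus. Among the 1459 valve interstitial-like nuclei thinned to 1000 UMIs, 365 had a Ctnna2 UMI and 331 a Nav3 UMI, and 18 had both. The product of the 2 shares within each pool would give 81.7 nuclei, a ratio of 0.22, and the ratio was 0.23, 0.15 and 0.26 in pools 1, 2 and 3. Inside cluster 3 alone the pair was seen together in 7 nuclei where the product was 61.7. Pcdh15 and Ctnna2 were together in 85 nuclei against a product of 147 (0.51, 0.52 and 0.72 by pool). Pcdh15 and Nav3 were together in 217 nuclei against 136 (1.68, 1.82 and 1.42), Pcdh15 and Kirrel3 in 291 against 227, and Kirrel3 and Nav3 in 169 against 127. The last 3 pairs were above the product inside cluster 3 (133 against 70.5, 125 against 87.8 and 101 against 61.2). Inside cluster 11 Pcdh15 and Kirrel3 (166 against 164) and Kirrel3 and Nav3 (68 against 67.2) were near it, Pcdh15 and Nav3 (84 against 66.0) were above it, and Ctnna2 and Nav3 (11 against 19.6, a ratio of 0.56) were below it by less than in cluster 3. Pcdh15 and Ctnna2 were together in 44 nuclei against 89.0 inside cluster 3 and in 41 against 48.8 inside cluster 11. Nuclei with a Nav3 UMI had a median of 3954 UMIs and 0.576% mitochondrial UMIs, and nuclei with a Ctnna2 UMI had 3323 UMIs and 0.850%. The part of depth and RNA quality in these ratios was not tested.

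In endothelial-like nuclei Grid1 (689 nuclei) and Nav3 (305 nuclei) were together in 15 nuclei where the product gave 76.6, with ratios of 0.18, 0.31 and 0.09 by pool. Kirrel3 and Grid1 were together in 10 against 31.6. Inside cluster 5 Kirrel3 and Grid1 were together in 5 nuclei against 10.4, a ratio of 0.48. In cardiomyocyte-like nuclei the pair Lrrc4c (191 nuclei) and Erc2 (320 nuclei) was seen in 54 nuclei against a product of 20.7, with ratios of 3.06, 3.52 and 1.80. Inside cluster 10, where both genes were highest, the pair was in 49 nuclei against a product of 45.2, a ratio of 1.08, with 14 against 17.4 in pool 3. Grid1 and Erc2 were together in 26 cardiomyocyte-like nuclei against 6.98, and in 20 against 13.8 inside cluster 10. Pcdh7 and Cdh18 in smooth muscle-like nuclei were together in 1535 nuclei, near the product of 1511. In fibroblast-like nuclei they were together in 71 against 33.8, but in 63 against 56.8 inside cluster 14, where both were high (a ratio of 1.11). No test was made of these counts. A nucleus of the valve interstitial-like class carried a UMI of 1.52 of the 10 genes on average after thinning, and 17.3% of these nuclei carried none, beside 1.65% of smooth muscle-like, 10.3% of cardiomyocyte-like, 38.7% of endothelial-like and 48.1% of fibroblast-like nuclei.

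**Figure D4:**
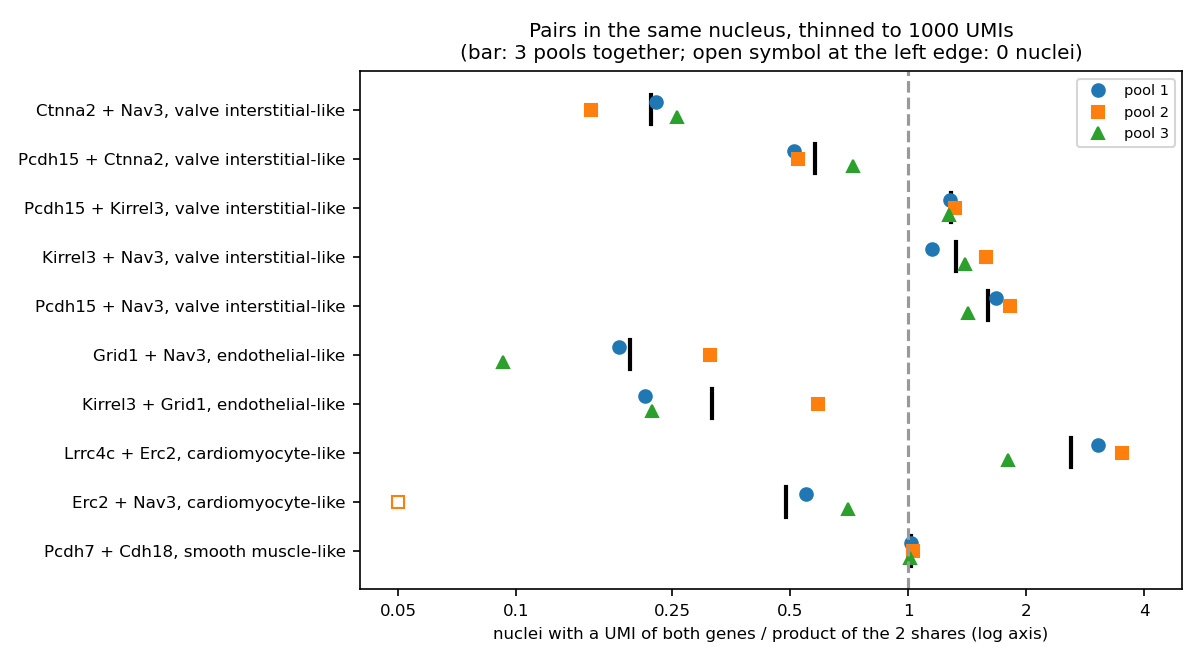
Number of nuclei with a UMI of both genes divided by the number that the product of the 2 shares gives (horizontal axis, logarithmic), for 10 pairs, with symbols for pools and a bar for all pools. Ctnna2 with Nav3 (0.22) and Grid1 with Nav3 (0.20) lie left of 1, Lrrc4c with Erc2 (2.61) lies right of 1, and Pcdh7 with Cdh18 in smooth muscle-like nuclei lies at 1. The ratios are over whole classes, whose clusters differ in level, and inside cluster 10 that of Lrrc4c with Erc2 is 1.08.

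Over the 27 clusters, the closest pair among the 10 genes was Lrrc4c and Erc2, with a Pearson correlation of 0.76 of log2(CPM + 5), and the most opposed was Cdh18 and Erc2, at -0.39. These clusters share libraries and the correlations are descriptions. Among 12659 genes outside the 10, the likeness was greatest to Lin7a, Esyt3 and Aldh1a1 for Pcdh15 (0.87, 0.87 and 0.83), to Gm46550, Dmd and Adcy5 for Pcdh7 (0.89, 0.89 and 0.86), and to Lmod1, Tnfrsf11b and LOC118568172 for Cdh18 (0.93, 0.92 and 0.91). For Ctnna2 it was to Itih5, Dnm1 and Rerg (0.86, 0.84 and 0.83), though at the finer resolution Itih5 and Rerg were leading genes of the cluster with Pcdh15 and Nav3 and not of the cluster where Ctnna2 was highest. For Kirrel3 it was to Gm33777, Robo2 and Tmem132c (0.91, 0.85 and 0.82), and for Nav3 to Cd109, LOC115487471 and Vash1 (0.86, 0.85 and 0.78). Lrrc4c was nearest to Gm30735, Kctd8 and Mapk4 (0.85, 0.82 and 0.82) and Erc2 to 4831407H17Rik, Kcnh7 and Mapk4 (0.88, 0.86 and 0.86), so Mapk4 was in both sets. Grid1 was nearest to Rps6ka2, 5033403F01Rik and Fmn2 (0.84, 0.80 and 0.80) and Syt1 to Gm15411, Crispld2 and Clca3a2 (0.84, 0.80 and 0.78).

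The known binding partners were at very different levels where each gene was highest. Cdh23, the tip-link partner of Pcdh15, had 8.45 ± 1.34 CPM in cluster 11, from 18 UMIs, and 4.50 ± 1.26 CPM in its class. Ntng1 and Ntng2, the netrin-G proteins, had 2.37 ± 0.662 and 1.36 ± 1.23 CPM in cluster 10, where Lrrc4c was highest. Ntng1, which Lrrc4c binds, was instead at 41.3 ± 29.0 CPM in fibroblast-like and 36.9 ± 8.69 CPM in the valve class. Of the cerebellins that link delta glutamate receptors to neurexins, Cbln1 had 4 UMIs and Cbln2 1 UMI in all nuclei, and Cbln4 had 0, which allows up to 3 UMIs by counting error alone. Nrxn3, a neurexin, had 883 ± 137 CPM in cluster 4 with Grid1. Snap25, the membrane partner of Syt1, had 3 UMIs in cluster 2, and was highest in cardiomyocyte-like nuclei at 28.6 ± 2.05 CPM. Stx1a and Vamp2, the other parts of the fusion complex, had 222 ± 25.4 and 56.4 ± 4.79 CPM in cluster 2. Rims1, an active zone protein, had 506, 691 and 532 CPM (576 ± 100) in cluster 10 with Erc2, while Bsn had 1 UMI there and Ppfia2, a liprin, 13.5 ± 13.4 CPM. Ctnnb1, the beta-catenin that holds alpha-catenins to cadherins, had 126 ± 15.6 CPM in cluster 3, and of the Kirrel3 relatives Kirrel (Kirrel1) had 105 ± 11.3 CPM and Nphs1 1 UMI in cluster 11.

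A list of 149 other adhesion and synaptic genes, left out of the clustering as well, was tested by class with edgeR's quasi-likelihood test against the average of the other 9 classes, with p adjusted by Benjamini-Hochberg over the 13668 genes that passed the filter, of which 99 were on the list. The list was chosen with earlier results of these data known, so its counts are not an independent test of such genes. In valve interstitial-like nuclei 40 of the 99 rose and 10 fell, beside 27.4% of all genes called (19.7% higher, 7.7% lower). In endothelial-like nuclei 29 rose and 21 fell (29.3% of all genes called, 22.2% higher and 7.1% lower), and in smooth muscle-like nuclei 40 rose and 12 fell (32% of all, 24.6% higher and 7.36% lower). In cardiomyocyte-like nuclei 28 rose and 24 fell (45.4% of all, 30.9% higher and 14.6% lower), and in fibroblast-like nuclei 41 rose and 9 fell (22.1% of all, 16.7% higher and 5.31% lower). The median log2 difference of the list was 0.54, 0.30, 0.62, -0.06 and 0.65 in these classes, and that of all genes lay between 0.22 and 0.26. With DESeq2 the same counts were 39 and 17, 27 and 31, 39 and 22, 28 and 42, and 43 and 13. Calls of lower genes changed without pool 1 and without the erythroid-like class. Without pool 1 the counts were 32 and 3, 26 and 7, 37 and 2, 29 and 9, and 34 and 5. Without the erythroid-like class they were 38 and 15, 30 and 33, 39 and 24, 30 and 40, and 43 and 17.

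In valve interstitial-like nuclei 11 of 20 leucine-rich repeat synaptic organisers rose and 1 fell, 9 of 17 immunoglobulin-type proteins rose and none fell, 8 of 15 glutamate receptor, cerebellin, neurexin and neuroligin genes rose and 2 fell, 7 of 23 vesicle and active zone genes rose and 1 fell, and 4 of 22 cadherins, protocadherins and catenins rose and 6 fell. In the same order of roles, 2, 5, 5, 5 and 11 genes rose and 5, 1, 2, 5 and 7 fell in endothelial-like nuclei. In smooth muscle-like nuclei 8, 6, 6, 8 and 11 rose and 1, 3, 2, 4 and 2 fell. In cardiomyocyte-like nuclei 6, 2, 1, 12 and 6 rose and 5, 3, 7, 3 and 6 fell. In fibroblast-like nuclei 10, 8, 8, 5 and 9 rose and 0, 1, 0, 2 and 5 fell. Of the 2 other neuron navigators 1 rose in each of the 5 classes, and 1 fell in endothelial-like and in fibroblast-like nuclei. The differences between roles were not tested.

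The largest rises of the list in valve interstitial-like nuclei, on the fitted log2 scale, were of Ntng1 (3.56, SE 0.49, edgeR adjusted p = 5.59e-07), the adhesion molecule Cadm1 (3.44, SE 0.24), Syt9 (3.24, SE 0.57) and the contactin Cntn4 (3.05, SE 0.32), while Unc13b, a vesicle priming protein, fell (-1.94, SE 0.33). The fitted difference averages the other 9 classes on the log scale and can exceed the difference in mean CPM. Ntng1 had 36.9 CPM beside a mean of 12.4 CPM over the other classes, and Cadm1 had 236 beside 84.5 CPM. In smooth muscle-like nuclei Cdh6 (3.49, SE 0.17), Cdh10, the AMPA receptor subunit Gria1 (3.10, SE 0.19) and Grin2a rose most, with Cdh6 at 412 ± 39.8 CPM, and Pcdh19 (-2.41) and Nrxn3 (-2.13) fell most. In endothelial-like nuclei the protocadherins Pcdh10 (5.60, SE 0.42), Pcdh17 (4.19) and Pcdh1 (3.90) rose with Nrxn3 (4.09, SE 0.19), which stood at 969 ± 50.3 CPM, while the latrophilin Adgrl3 (-2.58) fell. Pcdh10 had 16.0 CPM there beside a mean of 0.481 CPM over the other classes. In cardiomyocyte-like nuclei Snap25 (6.49, SE 0.36), Cdh20 (5.36), Lrrtm3 (4.03) and the N-cadherin gene Cdh2 (4.03, SE 0.15) rose, Cdh2 to 3152 ± 497 CPM, and Nlgn1 (-2.70) fell. In fibroblast-like nuclei Ppfia2 (4.35), Gria4 (3.94), the teneurin Tenm4 (3.68) and Ntng1 (3.55) rose, and Cdh20 (-2.75) and Cntn3 (-2.50) fell, both with means under 1 CPM in that class.

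Splits of the nuclei that the choice of the 10 genes had not used gave few differences. The pools mix both sexes, and nuclei were called female by at least 2 Xist UMIs without a Y-linked UMI and male by a Y-linked UMI without Xist, which gave 4345 female and 4755 male nuclei. Averaged over the 5 largest classes, 0 of the 10 genes passed edgeR's test at an adjusted p of 0.05, 2 had an unadjusted p under 0.05 beside 5.26% of all genes, and 9 of 12629 genes (0.0713%) were called. The log2 differences of female against male ran from -0.55 (Syt1, SE 0.34) to 0.60 (Lrrc4c, SE 0.27, edgeR adjusted p = 0.920). Lrrc4c was higher in female nuclei in 3 of 3 pools, by 0.72, 0.23 and 0.60. Kirrel3 was at -0.27 (SE 0.10, edgeR adjusted p = 0.786), with -0.49, 0.26 and -0.43 by pool, and it passed without pool 2 alone, at -0.49 (edgeR adjusted p = 0.00816). Within single classes 0 of the 10 genes passed either, and the differences were wider. In cardiomyocyte-like nuclei 3 genes had an unadjusted p under 0.05 (4.65% of all genes), namely Pcdh15 at 1.05 (SE 0.33, edgeR adjusted p = 0.610), Cdh18 at 0.92 (SE 0.21, edgeR adjusted p = 0.10) and Nav3 at 0.34 (SE 0.16), each higher in female nuclei in 3 of 3 pools. For Cdh18 pool 3 was nearly equal, at 11.5 CPM in female and 11.2 CPM in male nuclei, from 21 and 19 UMIs. Cluster 8 held 634 of the 885 Cdh18 UMIs of the class. Fibroblast-like nuclei ran from -1.55 (Syt1, SE 0.92) to 1.41 (Lrrc4c, SE 0.65), with 3 genes under that p (5.54% of all genes). Valve interstitial-like nuclei had 1 gene (4.97% of all genes), endothelial-like nuclei 2 (3.84%) and smooth muscle-like nuclei 1 (3.82%).

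For EGFP, which the strain's name places at Scx, each valve interstitial-like nucleus with an EGFP UMI was set beside 1 nucleus of the same pool and cluster without one and of the nearest UMI total, giving 157 pairs. Of the 10 genes 5 were tested, 0 passed, and 1 of 5321 genes (0.0188%) was called. Of the 5, 4 had an unadjusted p under 0.05, as had 7.01% of all genes tested. Nav3 had 972, 795 and 808 CPM in nuclei with and 2049, 1972 and 1084 CPM in nuclei without an EGFP UMI in pools 1, 2 and 3, so every pool was lower (-0.96, SE 0.20, edgeR adjusted p = 0.140). Pcdh7 had 328, 218 and 606 CPM with and 428, 444 and 1191 CPM without (-0.77, SE 0.18, edgeR adjusted p = 0.180). Pcdh15 had 3326, 3012 and 656 CPM with and 3473, 3652 and 4873 CPM without, a difference of -0.92 (SE 0.38, edgeR adjusted p = 0.701). Ctnna2 had 820, 688 and 614 CPM with and 488, 538 and 466 CPM without, higher in every pool (0.53, SE 0.17, edgeR adjusted p = 0.552), and Kirrel3 was at -0.20 (SE 0.18). Nav3 passed without pool 3 (-1.17, edgeR adjusted p = 3.01e-11) and with no filter on low counts (-0.97, edgeR adjusted p = 0.0283), and Pcdh15 without pool 1 (-1.48, edgeR adjusted p = 0.0210), while without pool 3, with 28 of the pairs, Pcdh15 was at -0.15. Matching was within the coarser clusters, and cluster 3 held nuclei of both finer clusters with EGFP at 59.9 and 30.1 CPM. The part of that mixture was not tested.

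**Figure D5:**
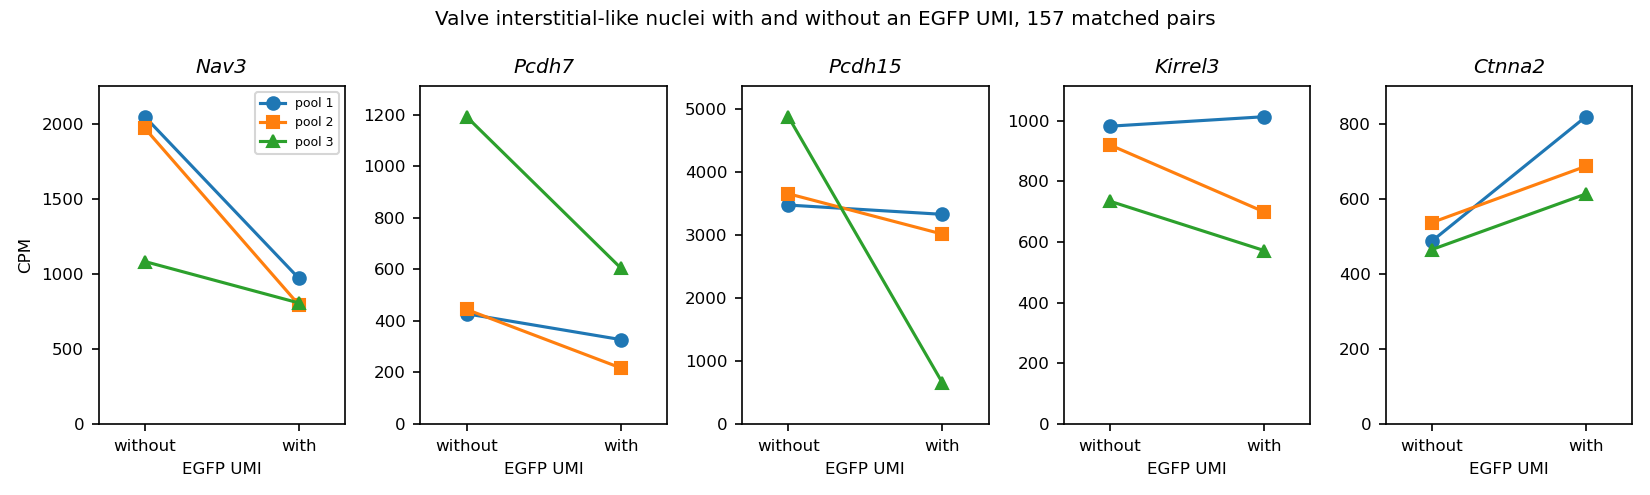
Level in CPM (vertical axis) of the 5 tested genes in matched valve interstitial-like nuclei without and with an EGFP UMI, with 1 line per pool. Nav3, Pcdh7 and Pcdh15 are lower and Ctnna2 is higher with EGFP in 3 of 3 pools, Kirrel3 is lower in 2 of 3, and none passed the test over all genes.

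In endothelial-like nuclei, with 149 such pairs, 6 of the genes were tested and 0 passed, and 1 of 6602 genes (0.0151%) was called. Of the 6, 3 had an unadjusted p under 0.05, beside 5.82% of all genes tested: Lrrc4c at -1.61 (SE 0.60, edgeR adjusted p = 0.679), Cdh18 at -1.45 (SE 0.58) and Pcdh7 at 0.36 (SE 0.17). Without pool 2 Cdh18 was at 0.30, the opposite direction. Lrrc4c rested on 7, 0 and 4 UMIs with and 20, 8 and 5 UMIs without EGFP. Grid1 had 294, 583 and 398 CPM with and 352, 585 and 428 CPM without an EGFP UMI (-0.11, SE 0.16, edgeR adjusted p = 0.971). Nav3 was at 0.28 (SE 0.27, edgeR adjusted p = 0.948) when pairs came from the same cluster, and at -0.30 without pool 1. When they came from anywhere in the class it was at -1.39 and Cdh18 at -2.27, both with an edgeR adjusted p under the threshold (0.0317 and 0.00235). Nav3 changed direction between the 2 ways of pairing.

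For the cell cycle, 305 nuclei with at least 2 UMIs over 12 cell cycle genes were each set beside a nucleus without any, taken from its own pool and class. The cycling nuclei came from the 5 largest classes, with 6, 4 and 3 valve interstitial-like nuclei in pools 1, 2 and 3. Cluster 9, led by cell cycle genes and without a class name, was left out. Averaged over the 5 classes, 0 of 7 tested genes passed, 0 had an unadjusted p under 0.05 beside 15.3% of all genes, and 86 of 2622 genes (3.28%) were called. Within endothelial-like nuclei Cdh18 alone of the 7 was called, with 3.09% of all genes, at 16.1, 3.65 and 119 CPM in cycling and 67.2, 129 and 537 CPM in other nuclei (-2.54, SE 0.39, edgeR adjusted p = 7.4e-05), and not without the pool term (edgeR adjusted p = 0.0921). Grid1 was at -1.59 (SE 0.45, edgeR adjusted p = 0.0520), lower in 3 of 3 pools. Pairs came from the same pool and class and not from the same cluster, and cluster 27, led by Kif23 and Top2a, holds cycling endothelial-like nuclei. Grid1 stood at 1718 CPM in cluster 4 and 297 CPM in cluster 27, and the part of the mix of clusters in both differences was not tested. Cdh18 in that class rested on few nuclei. The 30 endothelial-like nuclei with at least 5 Cdh18 UMIs held 491 of its 685 UMIs, had a median of 10967 UMIs against 4432 in the others, and had 1675 CPM of the 7 smooth muscle markers together against 387 CPM. The part of nuclei holding RNA of both cell types in this result was not tested.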

How the data were processed

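Gene counts per nucleus were made by the authors with Cell Ranger, version 7.1.0 per the file headers, while the submitters' processing notes list 7.0.1 and 7.1.0 with the build GRCm39. The deposited values are whole UMI counts, not normalized. Chromatin data were not analysed here. Nuclei with under 1000 UMIs (3219) or over 5% mitochondrial UMIs were left out. Scrublet's automatic threshold marked 0 doublets, so the highest scores were removed at 0.8% per 1000 deposited nuclei (891 in all). Nuclei were clustered with scanpy 1.11.5 and leidenalg 0.10.2 (2000 variable genes, 30 components, 15 neighbours, resolution 1), without the 10 genes, the 149 list genes, and cell cycle, sex and mitochondrial genes. Clusters took a class name from at least 3 markers. The members and lists were chosen with earlier results of these data known.

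Levels are CPM of summed counts per pool. Shares of nuclei were taken after thinning to 1000 UMIs. Sums were tested with edgeR 4.0.16 (quasi-likelihood, TMM, filterByExpr, pool as a block, adjusted p threshold 0.05) in R 4.3.3. The pairing by pool follows from the design, since the nuclei compared come from the same library. DESeq2 1.42.0, other size factors, no filter, no block and leaving out each pool were alternatives, as were other limits on nuclei and the erythroid-like class left out, which was chosen after seeing the data. The test was first tested on simulated counts with known changes.

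Named genes were all 10 members, the 3 genes nearest to each over 27 clusters among genes reaching 20 CPM, fixed binding partners, and per class up to 4 list genes that rose most and 2 that fell most, among those past the threshold with 1 direction in 3 pools. Some genes that this rule selects are not reported here.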

Additional observations from a re-analysis of the deposited data

How the results depend on the processing

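Among all comparisons made, the level of a member in its class moved by 1 SD or more in 13. Other limits on UMIs, mitochondrial share, doublets, resolution and the genes used for clustering gave 60 comparisons of its highest cluster. The level there moved by less than 1 SD in 45 of 60, and that cluster kept its class name in 50 of 60. The exceptions were Cdh18 and Syt1, in a cluster then named pericyte-like. Leaving out each pool gave 33 to 49 list genes called in endothelial-like nuclei (33 without pool 1). For sex, 33 genes were called with no filter and 5 without the block, and leaving out pool 2 gave 1 member, so members ranged from 0 to 1.

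For EGFP in valve interstitial-like nuclei, no filter gave 3 genes, matching within the class 10, leaving out each pool 6 to 32, and DESeq2 and the edgeR fit without the block 0 (49 and 201 at an unadjusted p under 0.05). Members called were 1 with no filter and 0 to 1 when a pool was left out. In endothelial-like nuclei the size factors of DESeq2 in edgeR gave 2 genes, no filter 17, matching within the class 83 with 2 members, leaving out each pool 0 to 7 (the 0 by edgeR, with 326 at an unadjusted p under 0.05), and DESeq2 and the edgeR fit without the block 0 (57 and 217 at an unadjusted p under 0.05). Without 1 pool Cdh18 ranged from -2.01 to 0.30 (reversed without pool 2) and Nav3 from -0.30 (reversed without pool 1) to 0.57, and Nav3 was at -1.39 with matching within the class. For cycling nuclei, no filter gave 146 genes, DESeq2 133, at least 3 cell cycle UMIs 12, and leaving out each pool 19 to 83. The block, the pool that paired nuclei share, decided the call of Cdh18 in cycling endothelial-like nuclei, at -2.51 without it. The cause of these changes was not tested. Few nuclei limit the EGFP and cell cycle comparisons, the smallest sums holding 24 nuclei for EGFP, 3 for cycling, and 1 at 3 or more cell cycle UMIs.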
